A study of Mus musculus with 15 samples.

Results

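The genes described are 10 circadian clock genes, chosen by name with earlier results of these data known: Clock, Arntl, Per1, Per2, Per3, Cry1, Cry2, Nr1d1, Nr1d2 and Dbp. They are 10 of the 20308 entries of the expression table, and all 10 were above the filter on low values that left 14151 entries for the tests. Whole pancreatic islets of C57BL/6 mice were transduced with adenovirus for ca-Nfatc2, ca-Nfatc1 or GFP, and RNA was sequenced 48 hr later. The ca forms are constitutively active mutants of the mouse transcription factors NFAT1 (gene Nfatc2) and NFAT2 (gene Nfatc1), which no longer need calcineurin to enter the nucleus. GFP is a fluorescent protein that served as the virus control. All 3 viruses used the CMV promoter, which is not restricted to β-cells, and all islets spent the first night in medium without serum and the rest of the culture in medium with serum. No islets without virus are among the libraries. On each of 5 days the islets of 6 mice were pooled and divided into 3 portions, 1 for each virus, which gives 5 libraries per group, and the replicate number is the day. The ages of the mice and the time of day of the harvest are not given in the sources used here.

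The circadian clock is a loop of transcription and repression that runs in nearly every mammalian cell. CLOCK and ARNTL (BMAL1) pair on E-boxes and activate the Per, Cry, Nr1d1, Nr1d2 and Dbp genes. The PER and CRY proteins then return to the nucleus and repress CLOCK and ARNTL, while NR1D1 and NR1D2 (REV-ERBα and REV-ERBβ) repress Arntl through elements that they share with the ROR activators. DBP activates genes with a D-box, Per3 among them, and the repressor NFIL3 competes for the same element. In islets the clock is known for its part in insulin secretion, and mice whose β-cells lack Arntl become glucose intolerant. These RNAs rise and fall over the day, so with a single harvest at 48 hr a change of level and a change of phase cannot be told apart. In whole islets, fewer cells of a type and less RNA per cell cannot be told apart either.

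Promoters are shown for members on which the results turn, since promoters can hold elements through which clock proteins act on each other. Of the 10 genes, 9 had a RefSeq window (GRCm38.p6, 250 bases before the start and 50 after it), and Per2 is only named. These genes have 13 windows in all, and of the windows of Per1 the more upstream one is printed. Each line gives the strand of the gene from 5′ to 3′, and capitals mark every match, on either strand, to the E-box CACGTG, the E-box variant CACGTT, the D-box TTATGTAA or TTACGTAA, the core AGGTCA of the Rev-erb and Ror element, the cAMP response element TGACGTCA or the NFAT core TGGAAA. A match is a description of letters and not a site of binding.
Dbp, chr7:45704997-45705296, plus strand: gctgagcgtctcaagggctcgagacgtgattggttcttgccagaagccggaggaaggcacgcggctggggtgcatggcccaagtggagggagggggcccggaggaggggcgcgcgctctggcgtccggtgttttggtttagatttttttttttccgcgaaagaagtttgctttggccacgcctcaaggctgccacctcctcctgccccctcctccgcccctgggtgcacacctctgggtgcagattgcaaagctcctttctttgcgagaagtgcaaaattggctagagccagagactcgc
Per3, chr4:151044616-151044915, minus strand: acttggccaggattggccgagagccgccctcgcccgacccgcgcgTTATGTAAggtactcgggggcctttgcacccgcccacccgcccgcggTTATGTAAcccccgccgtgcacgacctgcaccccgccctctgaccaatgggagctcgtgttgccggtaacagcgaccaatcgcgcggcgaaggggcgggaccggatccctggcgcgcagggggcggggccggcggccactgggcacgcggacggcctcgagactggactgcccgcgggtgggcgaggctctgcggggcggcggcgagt
Per1, chr11:69098699-69098998, plus strand: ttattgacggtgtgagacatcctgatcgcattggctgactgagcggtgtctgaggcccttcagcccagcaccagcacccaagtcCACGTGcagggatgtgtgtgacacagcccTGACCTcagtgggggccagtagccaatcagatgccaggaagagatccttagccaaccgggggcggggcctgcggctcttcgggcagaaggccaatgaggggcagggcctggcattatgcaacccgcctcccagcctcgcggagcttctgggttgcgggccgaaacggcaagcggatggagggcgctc
Cry1, chr10:85185005-85185304, minus strand: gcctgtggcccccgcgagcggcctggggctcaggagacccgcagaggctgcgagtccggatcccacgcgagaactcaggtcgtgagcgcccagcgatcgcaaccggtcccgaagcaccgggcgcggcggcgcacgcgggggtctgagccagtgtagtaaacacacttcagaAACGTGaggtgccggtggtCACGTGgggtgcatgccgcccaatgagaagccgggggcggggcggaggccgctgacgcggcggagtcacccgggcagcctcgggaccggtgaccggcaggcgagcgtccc
Nr1d1, chr11:98775328-98775627, minus strand: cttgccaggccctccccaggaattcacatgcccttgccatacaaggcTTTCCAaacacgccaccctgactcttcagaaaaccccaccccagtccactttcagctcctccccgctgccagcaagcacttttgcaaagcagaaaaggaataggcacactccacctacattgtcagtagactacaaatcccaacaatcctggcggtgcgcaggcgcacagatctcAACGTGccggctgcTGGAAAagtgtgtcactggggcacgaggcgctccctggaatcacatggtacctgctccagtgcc
Nr1d2, chr14:18239057-18239356, minus strand: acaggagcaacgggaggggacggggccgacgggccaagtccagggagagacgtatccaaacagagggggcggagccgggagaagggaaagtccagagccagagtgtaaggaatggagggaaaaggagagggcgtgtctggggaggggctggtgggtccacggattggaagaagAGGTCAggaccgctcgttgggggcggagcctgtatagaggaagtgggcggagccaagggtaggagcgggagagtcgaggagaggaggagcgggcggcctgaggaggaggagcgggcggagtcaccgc

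The Per3 window held 2 D-boxes of the letters TTATGTAA, starting 205 and 158 bases before the start of transcription, where 1.05% of 32544 mouse promoter windows hold any D-box. E-boxes CACGTG were found in the windows of Per1, at position -166, and of Cry1, at position -60, against 7.17% of all windows. The E-box variant was matched on the opposite strand, so that the printed strand reads AACGTG, at -79 in Cry1, at -28 in Nr1d1 and, in a window not printed, at -166 in Cry2 (4.71% of all windows). The AGGTCA core stood at -77 in Nr1d2 and, on the opposite strand, at -137 in Per1, and 16.2% of all windows hold it. In windows not printed, Arntl had this core at position 32 after the start and Clock had it on the opposite strand at -119. The NFAT core TGGAAA was found among the 13 windows of these genes in that of Nr1d1 only, on the opposite strand at -203 and on the strand of the gene at -14, and it is a common word that 21.5% of all windows hold. None of the 13 windows held an exact match to the cAMP response element TGACGTCA (1.8% of all windows), and the Dbp window held none of the motifs searched. Sequence outside the windows was not searched. The matches in the printed windows do not overlap each other.

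Normalized expected counts, the unit of the values below, are the reads that the authors assigned to a gene, scaled to make the libraries comparable. Library depth was 13.52 to 19.84 M expected counts in the ca-Nfatc2 libraries, 15.32 to 21.13 M in those of ca-Nfatc1 and 13.36 to 18.87 M in those of GFP, and the 10 genes had between 130.6 (Dbp) and 4265 (Nr1d2) expected counts in a library. The vectors could be seen in the RNA. Nfatc2 stood at 37600 to 89100 with ca-Nfatc2, against 414 to 693 with GFP, and Nfatc1 at 24700 to 29290 with ca-Nfatc1, against 166 to 291.1 with GFP. Among the markers of the labelled tissue, the sum over 8 β-cell genes was 522800 to 940100 with ca-Nfatc2, 779600 to 1167000 with ca-Nfatc1 and 1115000 to 1660000 with GFP, and 8 of 8 fell with ca-Nfatc2 and 6 of 8 with ca-Nfatc1. All 6 markers of cycling cells rose with ca-Nfatc2, where their sum was 5024 to 7111, while with ca-Nfatc1 it was 1682 to 2045 and with GFP 1691 to 1924. Of the other endocrine lists, 5 of 5 α-cell markers fell with ca-Nfatc2 and 3 of 5 with ca-Nfatc1 (sum 165000 to 222400 with ca-Nfatc2, 216900 to 263300 with ca-Nfatc1 and 380400 to 603800 with GFP), and 3 of 3 δ-cell markers fell with each (sum 2400 to 4720 with ca-Nfatc2, 5229 to 7870 with ca-Nfatc1 and 16150 to 31090 with GFP). Ppy, the marker of PP cells, fell with each (15640 to 25240 with ca-Nfatc2, 25320 to 30950 with ca-Nfatc1 and 37810 to 51580 with GFP). All 6 endothelial markers fell with ca-Nfatc2 and 1 of 6 with ca-Nfatc1, or 4 of 6 with the day as a block (sum 1539 to 2240 with ca-Nfatc2, 1995 to 2915 with ca-Nfatc1 and 2479 to 3664 with GFP).

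Lists of other cell types also moved, in part upward. Of 5 ductal markers tested, 3 rose and 1 fell with each ca-NFAT, while the sum over 6 was 4129 to 11680 with ca-Nfatc2, 7466 to 10690 with ca-Nfatc1 and 8010 to 9133 with GFP. The 3 that rose were Muc1 (log2 fold change 5.05 with ca-Nfatc2 and 5.75 with ca-Nfatc1), Krt19 (1.09 and 5.61) and Sox9 (3.02 and 1.98), and the one that fell was Krt7. Of 7 acinar markers tested, none rose and 2 fell with ca-Nfatc2, and 4 rose and 2 fell with ca-Nfatc1 (sum over 11 of 72.31 to 133.7 with ca-Nfatc2, 82.65 to 1089 with ca-Nfatc1 and 256.9 to 387.6 with GFP). Of 5 leukocyte markers tested, 2 rose with ca-Nfatc2, Csf1r by 1.97 and Itgam by 1.01, and Cd68 fell, while none passed with ca-Nfatc1 (sum over 7 of 491.1 to 1380 with ca-Nfatc2, 453.3 to 540.3 with ca-Nfatc1 and 365.2 to 510.6 with GFP). Of 6 mesenchymal markers, 4 fell with ca-Nfatc2 and 1 with ca-Nfatc1, and none rose (sum 1915 to 3216 with ca-Nfatc2, 2524 to 4773 with ca-Nfatc1 and 2863 to 4670 with GFP). With the day as a block, 7 of 8 β-cell markers and 4 of 5 α-cell markers fell with ca-Nfatc1, and 5 acinar markers rose. In that fit 3 leukocyte and 5 mesenchymal markers fell with ca-Nfatc2, and with ca-Nfatc1 1 mesenchymal marker rose and 2 fell. No marker in the table was at 0 in every library, though Ptf1a, an acinar transcription factor below the filter, had at most 1 expected count in a library. The part of these shifts in the results on the clock genes was not tested.

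Against GFP, 7 of the 10 clock genes fell with ca-Nfatc2 and none rose, while with ca-Nfatc1 5 fell and 2 rose (limma, adjusted p under 0.05). These viruses changed much of the transcriptome. Of all 14151 genes tested, 32.8% were lower and 35.7% higher with ca-Nfatc2 than with GFP, and 28.4% were lower and 28.4% higher with ca-Nfatc1. The median log2 fold change of the clock genes was -0.35 with ca-Nfatc2 and -0.29 with ca-Nfatc1, where the median over all genes was 0.0065 and -0.025. Without regard to sign, the median change of the clock genes was 0.346 with ca-Nfatc2, below the 0.439 of all genes. With ca-Nfatc1 it was 0.38, above the 0.321 of all genes. Values of the libraries did not overlap with GFP for 4 clock genes with ca-Nfatc2 and 6 with ca-Nfatc1, where 52% and 42.4% of all genes showed no overlap. Counted as lower only, the 7 of 10 with ca-Nfatc2 were a larger share than that of all genes, while the 4 of 10 without overlap were not. Counted in either direction, the 7 of 10 called with ca-Nfatc2 were close to the share of all genes called. The 10 genes were chosen with earlier results of these data known and act on each other, so these shares are a description only. In the direct comparison of ca-Nfatc2 with ca-Nfatc1, 5 clock genes were lower, none was higher and 5 did not overlap, against 25.7% lower, 23.6% higher and 34.6% without overlap among all genes. With the day as a block these counts became 7 lower and 1 higher with ca-Nfatc2, where 36.5% of all genes were lower and 38.5% higher in the same fit. They became 7 lower and 2 higher with ca-Nfatc1 (33.4% lower and 31.4% higher among all genes), and 6 lower and 2 higher with ca-Nfatc2 against ca-Nfatc1 (31.3% lower and 27.1% higher). Only Per3 and Dbp changed by 2-fold or more, both with ca-Nfatc2, and 20.6% of all genes did so in that comparison. The p-values of the fit without a day term measure the spread between libraries of a group, which came from separate days. They do not use the sharing of each pool by the 3 groups, which the fit with the day as a block does. The 3 comparisons share libraries and are not independent.

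**Figure D1:**
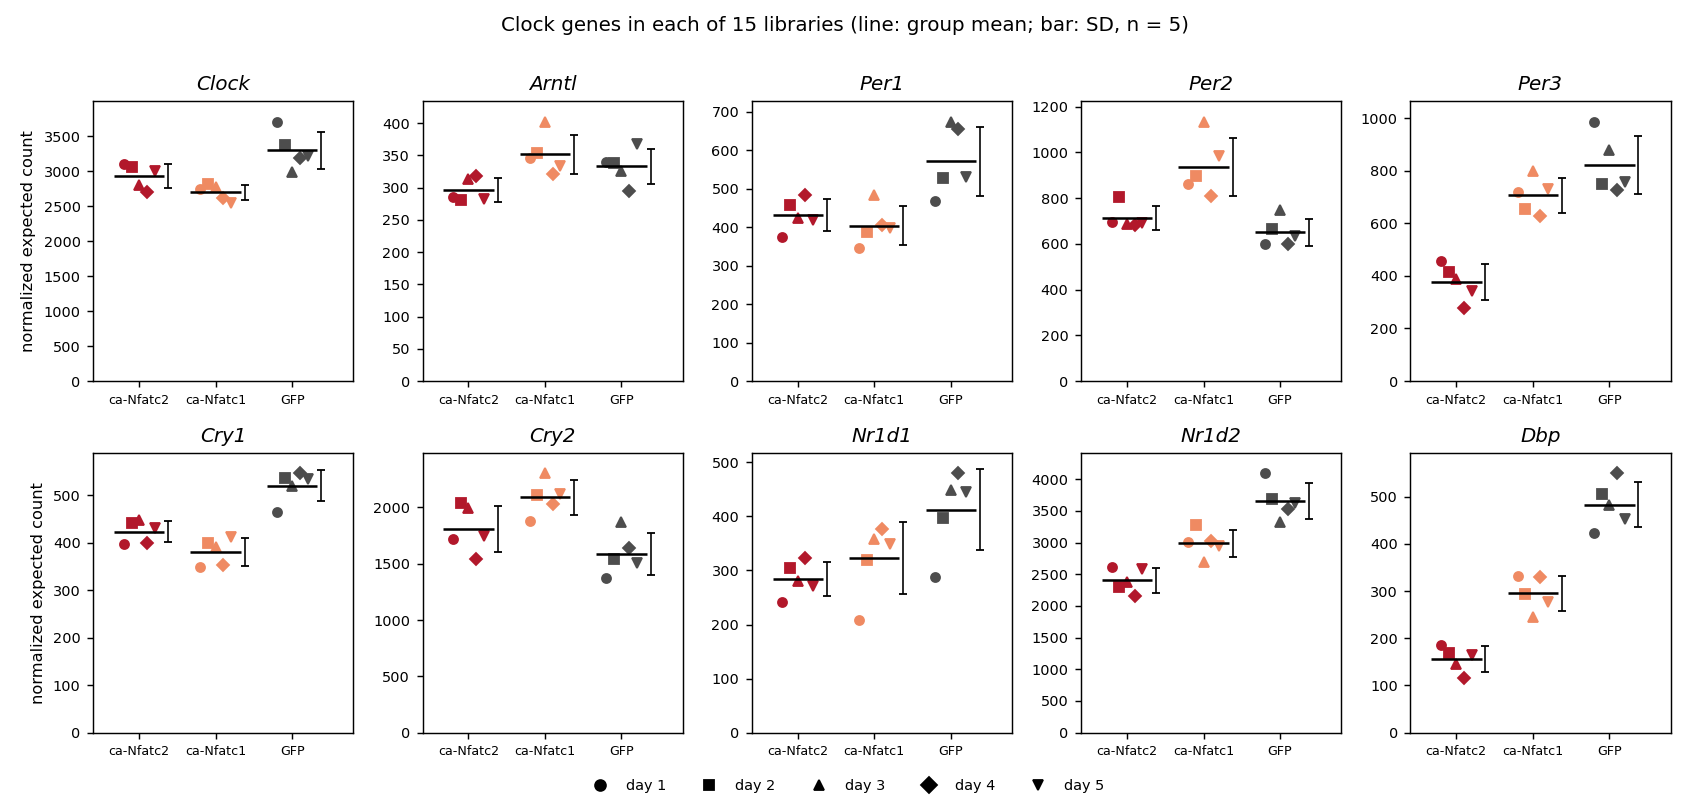
Normalized expected count (y axis, from 0) of each of the 10 clock genes in the 15 libraries, with a symbol for each day, a line at the group mean and a bar of ±1 SD beside it (n = 5). Dbp stands at 115.6 to 186.8 with ca-Nfatc2, 244.2 to 331.4 with ca-Nfatc1 and 424.2 to 549.6 with GFP, while the 3 groups overlap for Nr1d1.

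The largest change was in Dbp, a bZIP transcription factor of the clock output (chromosome 7, 45705100 to 45710203, plus strand). Its normalized expected counts on days 1 to 5 were 186.8, 169.1, 146.4, 115.6 and 165.3 with ca-Nfatc2. They were 331.4, 293.9, 244.2, 329.2 and 277.9 with ca-Nfatc1, and 424.2, 505.5, 482.7, 549.6 and 453.3 with GFP. The 3 groups stood apart with no overlap, and the order was the same on all 5 days. Dbp fell by 1.63 on the log2 scale with ca-Nfatc2 (SE 0.121, adjusted p = 1.87e-09, limma), to 0.324 of its mean with GFP. With ca-Nfatc1 it fell by 0.71 (SE 0.121, adjusted p = 7.51e-05), to 0.611 of the mean with GFP. The difference between the ca-NFATs was itself past the threshold, with Dbp 0.92 lower on the log2 scale with ca-Nfatc2 than with ca-Nfatc1 (adjusted p = 7.55e-06). Over 24 alternatives of normalization, filter, fit and libraries left out, the log2 fold change with ca-Nfatc2 lay between -1.754 and -1.527. The library with the lowest Dbp, day 4 of ca-Nfatc2, also had the highest Nfatc2 (89098). Within its group it was also the lowest for Per2, Per3, Cry2, Nr1d2 and Clock and the highest for Per1, Nr1d1 and Arntl. A link between Dbp and the level of Nfatc2 was looked at after the values were seen and was not tested.

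A limit of the Dbp value is that 539 exonic bases of Dbp lie opposite exons of Sphk2, a sphingosine kinase gene on the other strand, and whether the counting used strand is not given in the sources used here. Without strand, reads from the shared stretch cannot be told apart. Sphk2, named here after its values were seen, averaged 718 ± 59.8 with ca-Nfatc2, 905.2 ± 85.8 with ca-Nfatc1 and 1294 ± 179 with GFP (SD, n = 5). It also fell in both comparisons with GFP, by 0.84 with ca-Nfatc2 and by 0.51 with ca-Nfatc1, which was less than Dbp fell.

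Among the Period genes, which encode the repressors that pair with CRY, each member had its own pattern. Per3 (chromosome 4, 150997018 to 151044707, minus strand) had 457.3, 414.9, 388.2, 278 and 342.4 normalized expected counts on days 1 to 5 with ca-Nfatc2. With ca-Nfatc1 it had 719.3, 654.2, 800, 628.7 and 731.3, and with GFP 986.4, 751.1, 880.8, 727.2 and 758.9. Every ca-Nfatc2 library was below every library of the other groups, while those of ca-Nfatc1 and GFP overlapped. Per3 fell by 1.13 on the log2 scale with ca-Nfatc2 against GFP (SE 0.119, adjusted p = 1.73e-07, limma) and by 0.92 against ca-Nfatc1 (adjusted p = 6.07e-06). With ca-Nfatc1 against GFP the difference was -0.21 (95% CI -0.46 to 0.04, adjusted p = 0.142), lower on 5 of 5 days, and it passed the threshold with the day as a block (adjusted p = 0.0305).

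Per2 (chromosome 1, 91415977 to 91459351, minus strand) rose with ca-Nfatc1. On days 1 to 5 it had 695.3, 805.3, 688.2, 681.9 and 693.1 normalized expected counts with ca-Nfatc2. With ca-Nfatc1 it had 862.5, 898.8, 1134, 810.1 and 982.7, and with GFP 600.7, 665.3, 748, 601.6 and 633.7. The ca-Nfatc1 libraries were above all others, while those of ca-Nfatc2 and GFP overlapped. Per2 rose by 0.52 on the log2 scale with ca-Nfatc1 (SE 0.0882, adjusted p = 6.7e-05, limma), and with ca-Nfatc2 the difference from GFP was 0.14 (95% CI -0.05 to 0.32, adjusted p = 0.183). Against ca-Nfatc1, Per2 was 0.39 lower with ca-Nfatc2 (adjusted p = 0.0015).

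Per1 (chromosome 11, 69095108 to 69109965, plus strand), an early responder to cAMP and glucocorticoids, fell with both ca-NFATs. It had 375, 456.7, 423, 484.5 and 417.5 normalized expected counts on days 1 to 5 with ca-Nfatc2. The values were 347, 387.4, 483.2, 406.7 and 396.8 with ca-Nfatc1, and 469.1, 526.8, 674, 656.1 and 530.6 with GFP. Ranges of both ca-NFAT groups overlapped that of GFP, but on each of the 5 days GFP was the highest. Per1 fell by 0.40 on the log2 scale with ca-Nfatc2 (SE 0.108, adjusted p = 0.00355, limma) and by 0.49 with ca-Nfatc1 (adjusted p = 0.000832), and between the ca-NFATs the difference was 0.10 (95% CI -0.13 to 0.32, adjusted p = 0.486).

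Ratios of the Period genes within a library separated the groups. The ratio of Per2 to Per1, in normalized expected counts, was 1.41 to 1.85 with ca-Nfatc2 (median 1.66), 1.99 to 2.49 with ca-Nfatc1 (median 2.35) and 0.917 to 1.28 with GFP (median 1.19). That of Per3 to Per2 was 0.408 to 0.658 with ca-Nfatc2, 0.706 to 0.834 with ca-Nfatc1 and 1.13 to 1.64 with GFP. Neither ratio overlapped between any groups, and as both were chosen after the values were seen they are given with no test.

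The 2 Cryptochrome genes, which encode the stronger repressors of CLOCK and ARNTL, also differed from each other. Cry1 (chromosome 10, 85131700 to 85185054, minus strand) had 398.4, 440.7, 447.2, 400 and 431.1 normalized expected counts on days 1 to 5 with ca-Nfatc2. It had 348.6, 398.5, 392, 352.1 and 413.1 with ca-Nfatc1, and 465.4, 536.2, 519.8, 546.1 and 535.2 with GFP. All GFP libraries were above those of both ca-NFATs. Cry1 fell by 0.30 on the log2 scale with ca-Nfatc2 (SE 0.071, adjusted p = 0.0013, limma) and by 0.45 with ca-Nfatc1 (adjusted p = 3.23e-05). With ca-Nfatc2 against ca-Nfatc1 the log2 difference of Cry1 was 0.15, with the same sign on 5 of 5 days (95% CI 0.005 to 0.30, adjusted p = 0.0813, and 0.0282 with the day as a block).

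Cry2 (chromosome 2, 92403646 to 92434085, minus strand) had 1722, 2041, 1997, 1545 and 1743 normalized expected counts on days 1 to 5 with ca-Nfatc2. With ca-Nfatc1 it had 1878, 2112, 2302, 2034 and 2115, and with GFP 1370, 1545, 1872, 1641 and 1509. The ca-Nfatc1 libraries were all above those of GFP, and the ca-Nfatc2 libraries lay between and overlapped both. Cry2 rose by 0.40 on the log2 scale with ca-Nfatc1 (SE 0.0879, adjusted p = 0.000848, limma). With ca-Nfatc2 the log2 difference was 0.19 from GFP, with the same sign on 4 of 5 days (adjusted p = 0.0647, and 0.0101 with the day as a block), and -0.21 from ca-Nfatc1, with the same sign on 5 of 5 days (adjusted p = 0.0561, and 0.00735 with the day as a block). The ratio of Cry2 to Cry1 was 3.86 to 4.63 with ca-Nfatc2, 5.12 to 5.87 with ca-Nfatc1 and 2.82 to 3.6 with GFP, again with no overlap and again chosen after the values were seen. An annotated transcript opposite Cry2, D930015M05Rik, shares 149 exonic bases with it and was not analysed here.

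**Figure D2:**
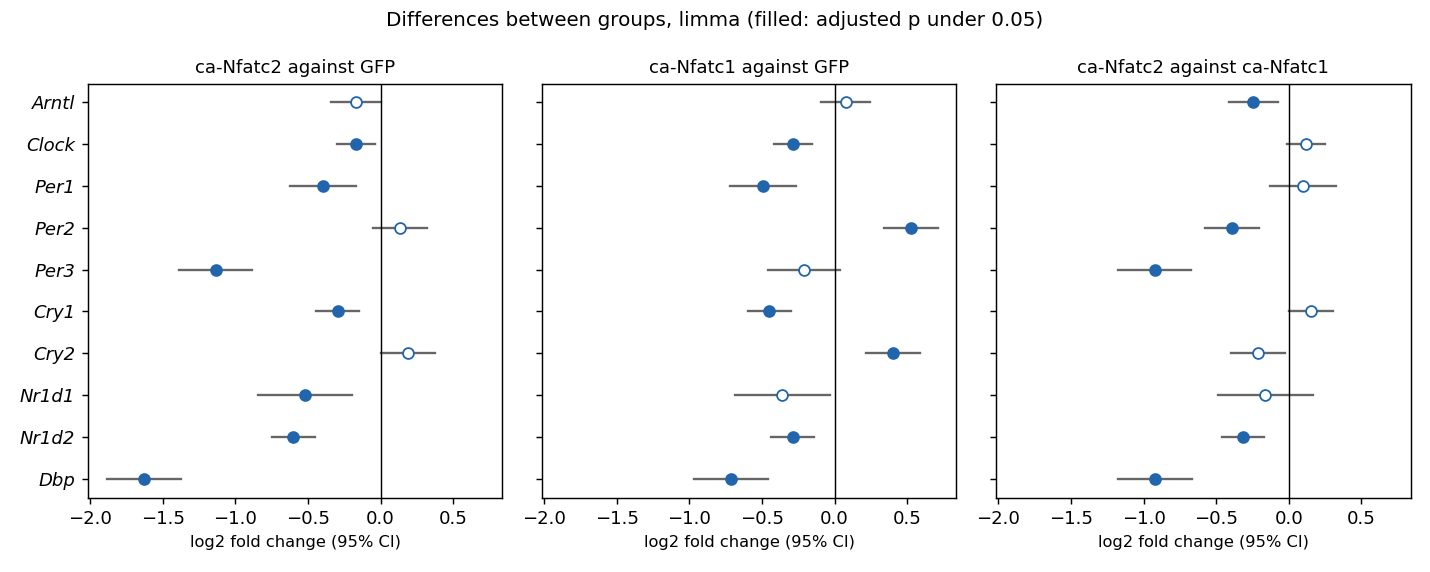
Log2 fold change (x axis) of the 10 clock genes for each ca-NFAT against GFP and for ca-Nfatc2 set against ca-Nfatc1 (right panel), with 95% confidence intervals of the limma fit and filled points where adjusted p was under 0.05. Dbp and Per3 lie farthest below 0 with ca-Nfatc2, at -1.63 and -1.13, and Per2 and Cry2 lie above 0 with ca-Nfatc1, at 0.52 and 0.40.

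Both REV-ERB genes, which encode the nuclear receptors that repress Arntl, were lower with ca-Nfatc2. Nr1d2 (chromosome 14, 18204056 to 18239106, minus strand) had 2617, 2291, 2376, 2159 and 2584 normalized expected counts on days 1 to 5 with ca-Nfatc2. The values were 3016, 3284, 2686, 3020 and 2948 with ca-Nfatc1, and 4092, 3690, 3320, 3531 and 3617 with GFP. The 3 groups did not overlap. Nr1d2 fell by 0.60 on the log2 scale with ca-Nfatc2 (SE 0.0703, adjusted p = 6.5e-07, limma) and by 0.29 with ca-Nfatc1 (adjusted p = 0.00207). It was 0.31 lower with ca-Nfatc2 than with ca-Nfatc1 (adjusted p = 0.00128).

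Nr1d1 (chromosome 11, 98767932 to 98775377, minus strand) had 241.7, 305.2, 279.9, 323.1 and 270.8 normalized expected counts on days 1 to 5 with ca-Nfatc2. With ca-Nfatc1 it had 208.7, 319.9, 358.4, 377.3 and 348.5, and with GFP 288.8, 397.8, 449.3, 479.6 and 444.8. Its groups overlapped, and day 1 was the lowest in each of them. Nr1d1 fell by 0.52 on the log2 scale with ca-Nfatc2 (SE 0.155, adjusted p = 0.00661, limma). With ca-Nfatc1 the difference from GFP was -0.36 (95% CI -0.69 to -0.03, adjusted p = 0.0563), lower on 5 of 5 days, and it passed with the day as a block (adjusted p = 0.00117). Without ca-Nfatc1 day 1 the difference was -0.21 (adjusted p = 0.173), and without GFP day 1 it was -0.48 and passed (adjusted p = 0.00841). On the opposite strand, Thra, a thyroid hormone receptor gene named here after its values were seen, shares 263 exonic bases with Nr1d1. Thra also fell, by 0.72 with ca-Nfatc2 and by 0.35 with ca-Nfatc1 (limma, adjusted p = 0.000211 and 0.0397). As for Dbp, whether reads of the shared stretch were told apart is not known. The ratio of Nr1d2 to Nr1d1 had a median of 8.49 with ca-Nfatc2, 8.46 with ca-Nfatc1 and 8.13 with GFP.

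The activators of the loop are Clock and Arntl. Clock (chromosome 5, 76209868 to 76305603, minus strand) had 3104, 3051, 2802, 2694 and 2998 normalized expected counts on days 1 to 5 with ca-Nfatc2. With ca-Nfatc1 it had 2737, 2812, 2771, 2608 and 2549, and with GFP 3703, 3370, 2991, 3184 and 3220. GFP was the highest on every day, and its libraries overlapped those of ca-Nfatc2 but not those of ca-Nfatc1. Clock fell by 0.29 on the log2 scale with ca-Nfatc1 (SE 0.0616, adjusted p = 0.000705, limma) and by 0.17 with ca-Nfatc2 (adjusted p = 0.023). The call with ca-Nfatc2 was lost with every library scaled to the same total (adjusted p = 0.0973), and without GFP day 1 (0.0661), ca-Nfatc2 day 3 (0.0558) or ca-Nfatc2 day 4 (0.0632). With ca-Nfatc2 against ca-Nfatc1, Clock differed by 0.12 (adjusted p = 0.119, and 0.041 with the day as a block).

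Arntl (chromosome 7, 113178471 to 113314126, plus strand) passed the threshold against GFP with neither ca-NFAT. It had 285, 281.1, 313.6, 318.6 and 281.6 normalized expected counts on days 1 to 5 with ca-Nfatc2. With ca-Nfatc1 the values were 345.3, 354.2, 402.1, 321.6 and 333.7, and with GFP 339.7, 338.6, 325.3, 294.1 and 368.4. Every ca-Nfatc2 library was below every ca-Nfatc1 library, and GFP overlapped both. The log2 difference from GFP was -0.17 with ca-Nfatc2 (95% CI -0.34 to 0.00, adjusted p = 0.07, limma; it passed without GFP day 4, at 0.03, and without ca-Nfatc2 day 4, at 0.0487) and 0.08 with ca-Nfatc1 (95% CI -0.09 to 0.24, adjusted p = 0.436). Arntl was 0.24 lower with ca-Nfatc2 than with ca-Nfatc1 (adjusted p = 0.0175), a call that was lost without day 3 of ca-Nfatc1 (adjusted p = 0.0512). The ratio of Dbp to Arntl was 0.363 to 0.656 with ca-Nfatc2, 0.607 to 1.02 with ca-Nfatc1 and 1.23 to 1.87 with GFP, so that all ca-NFAT libraries were below all GFP libraries in this ratio, which was also chosen after the values were seen.

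Per kb of the longest RefSeq-linked transcript, the scale on which levels of different genes can be set side by side, Nr1d2 was the highest in all 3 groups, with a mean of 515.8 with ca-Nfatc2, 641.4 with ca-Nfatc1 and 782.8 with GFP. Cry2 was next with 455.1 with ca-Nfatc2, 525.2 with ca-Nfatc1 and 399.2 with GFP, and its libraries overlapped those of Nr1d2 with both ca-NFATs but not with GFP. Clock came next in each group. The place of Dbp in this order changed, since its level per kb was 85.27 with ca-Nfatc2, ninth of the 10 genes, where its libraries overlapped those of both neighbours. With ca-Nfatc1 it was 160.8, level with Per2 at 160.7, and these came after Clock, and with GFP it was 263, the fourth. With GFP, Dbp was apart from both neighbours in the order, and the genes below it, Cry1, Nr1d1, Per3, Per1, Arntl and Per2, lay between 172 and 111.4 with each overlapping the next. Per3 was the lowest with ca-Nfatc2 (62.7), Per1 with ca-Nfatc1 (86.54) and Per2 with GFP (111.4).

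Other transcription factors of the loop were followed in a list of 10 partners of the clock genes. Of these, 3 rose and 4 fell with ca-Nfatc2, where 35.7% of all genes rose and 32.8% fell. With ca-Nfatc1 2 rose and 4 fell, where 28.4% of all genes rose and 28.4% fell. With the day as a block 4 rose and 4 fell with ca-Nfatc2 (38.5% and 36.5% of all genes). The median log2 fold change of the partners was -0.10 with ca-Nfatc2 and -0.19 with ca-Nfatc1. Npas2, a paralogue of Clock that can take its place beside ARNTL, rose in both. It averaged 129.6 ± 39.1 normalized expected counts with ca-Nfatc2, 151.7 ± 22.4 with ca-Nfatc1 and 33.48 ± 9.32 with GFP (SD, n = 5), a log2 fold change of 1.92 with ca-Nfatc2 (adjusted p = 2.23e-07, limma) and 2.18 with ca-Nfatc1 (adjusted p = 6.57e-08). Bhlhe40, a repressor at E-boxes also known as DEC1, averaged 788.1 ± 138 with ca-Nfatc2, 1577 ± 77.7 with ca-Nfatc1 and 510.6 ± 114 with GFP. It rose by 0.64 with ca-Nfatc2 and by 1.65 with ca-Nfatc1, and its log2 fold change was -1.01 with ca-Nfatc2 against ca-Nfatc1 (adjusted p = 5.79e-06). Its paralogue Bhlhe41 (DEC2) fell instead, by 0.61 with ca-Nfatc2 and by 0.65 with ca-Nfatc1.

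Factors that share the D-box with DBP also moved. Tef, a close relative of Dbp, fell by 0.61 on the log2 scale with ca-Nfatc2 (adjusted p = 1.19e-07, limma) and by 0.29 with ca-Nfatc1 (adjusted p = 0.000774), and its mean was 1266 ± 96.7 normalized expected counts with ca-Nfatc2, 1583 ± 90.3 with ca-Nfatc1 and 1928 ± 83.5 with GFP (SD, n = 5). Hlf, the third member of that family, had log2 differences of 0.27 with ca-Nfatc2 and 0.03 with ca-Nfatc1 that did not pass (adjusted p = 0.0766 and 0.875), and that with ca-Nfatc2 passed with the day as a block (0.0208). Nfil3, the D-box repressor, fell by 0.48 with ca-Nfatc2 and by 0.74 with ca-Nfatc1 (adjusted p = 0.00234 and 5.85e-05). Rora, which activates Arntl through the element that the REV-ERBs repress, fell by 0.47 with ca-Nfatc2 and by 0.23 with ca-Nfatc1 (adjusted p = 2.02e-06 and 0.00305). Its relative Rorb went the other way with ca-Nfatc2, up by 0.93 (adjusted p = 0.0165, limma), and with ca-Nfatc1 the difference was -0.49 (adjusted p = 0.209). Rorb was a low gene, with means of 11.72 with ca-Nfatc2, 3.721 with ca-Nfatc1 and 6.098 with GFP.

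**Figure D3:**
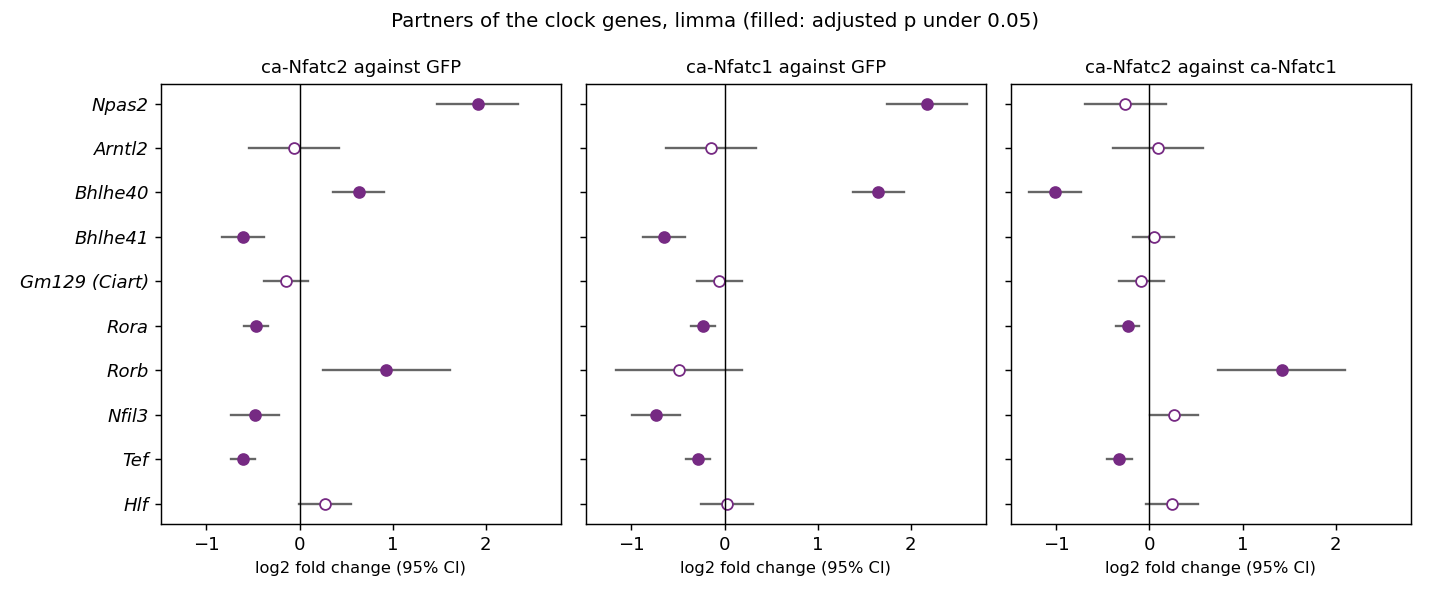
Log2 fold change (x axis) of the 10 partners of the clock genes in the same 3 comparisons, with 95% confidence intervals of the limma fit and filled points where adjusted p was under 0.05. Npas2 lies far to the right of 0 against GFP with both ca-NFATs (1.92 and 2.18), while Bhlhe40 and Bhlhe41 lie on opposite sides of 0.

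Clock proteins are marked for activity or decay by kinases, ubiquitin ligases and proteases. Of 17 such genes, 5 rose and 4 fell with ca-Nfatc2 (median log2 fold change -0.09), where 35.7% of all genes rose and 32.8% fell. With ca-Nfatc1 6 rose and 5 fell (median -0.03), where 28.4% of all genes rose and 28.4% fell. With the day as a block 5 rose and 5 fell with ca-Nfatc2 (38.5% and 36.5% of all genes). In that fit 6 rose and 6 fell with ca-Nfatc1 (31.4% and 33.4% of all genes). Usp2, a protease that takes ubiquitin off clock proteins, changed the most, with 174.7 ± 27 normalized expected counts with ca-Nfatc2, 315.7 ± 24.5 with ca-Nfatc1 and 49.51 ± 16.3 with GFP (SD, n = 5). It rose by 1.84 on the log2 scale with ca-Nfatc2 and by 2.70 with ca-Nfatc1 (limma, adjusted p = 3.8e-08 and 2.88e-10). Csnk2b, the regulatory subunit of casein kinase 2, rose by 1.12 with ca-Nfatc2 and by 0.37 with ca-Nfatc1, and Prkaa1, a catalytic subunit of AMPK, rose by 0.27 with ca-Nfatc2 and by 0.56 with ca-Nfatc1. Siah2, a ubiquitin ligase that acts on NR1D1, fell by 0.44 with ca-Nfatc2 and by 0.65 with ca-Nfatc1. Fbxl21, an F-box protein that binds CRY, went in opposite directions, down by 0.62 with ca-Nfatc2 and up by 0.43 with ca-Nfatc1 (adjusted p = 0.00152 and 0.021), and its log2 fold change was -1.05 with ca-Nfatc2 against ca-Nfatc1 (adjusted p = 1.95e-05). The rise of Fbxl21 with ca-Nfatc1 did not pass without GFP day 5 or without ca-Nfatc1 day 2 (0.37 each, adjusted p = 0.0578 and 0.0604), nor under quantile normalization (0.18, adjusted p = 0.344).

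Genes that are rhythmic in many mouse tissues made a list of 10 outputs. Of these, 2 rose and 7 fell with ca-Nfatc2 (median log2 fold change -0.47), where 35.7% of all genes rose and 32.8% fell. With ca-Nfatc1 1 rose and 6 fell (median -0.43), where 28.4% of all genes rose and 28.4% fell. With the day as a block 3 of the list rose and 7 fell with ca-Nfatc2 (38.5% and 36.5% of all genes). The largest falls were in Hspa1b, an inducible HSP70 chaperone of the heat shock response whose reads are hard to assign because of its near-identical copy Hspa1a, and in Pdk4, a kinase that inhibits pyruvate dehydrogenase and also responds to fasting. Hspa1b averaged 403 ± 132 normalized expected counts with ca-Nfatc2, 649.2 ± 158 with ca-Nfatc1 and 11040 ± 2790 with GFP, and Pdk4 averaged 39.84 ± 22.6 with ca-Nfatc2, 66.54 ± 21.4 with ca-Nfatc1 and 648.7 ± 163 with GFP (SD, n = 5). Both genes fell, with log2 fold changes of -4.80 (ca-Nfatc2) and -4.09 (ca-Nfatc1) for Hspa1b and of -4.15 (ca-Nfatc2) and -3.28 (ca-Nfatc1) for Pdk4 (limma, adjusted p at most 8.92e-08). Wee1, a kinase that holds back CDK1 and a known target of CLOCK and ARNTL, fell by 0.92 on the log2 scale with ca-Nfatc2 and by 1.25 with ca-Nfatc1 (limma, adjusted p = 1.03e-07 and 2.45e-09). Lonrf3 fell by 0.40 with ca-Nfatc2 and by 1.24 with ca-Nfatc1. Cdkn1a, the gene of the CDK inhibitor p21, rose by 0.75 with ca-Nfatc2 (adjusted p = 1.28e-05), and with ca-Nfatc1 its difference was 0.16 (adjusted p = 0.236).

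A list of 12 genes covered signals known to reach the clock, which are cAMP, glucocorticoids, protein kinase C (Prkca) and heat (Hsf1). Of these genes, 1 rose and 7 fell with ca-Nfatc2 (median log2 fold change -0.28), where 35.7% of all genes rose and 32.8% fell. With ca-Nfatc1 none rose and 5 fell (median -0.20), where 28.4% of all genes rose and 28.4% fell. With the day as a block 1 of the list rose and 6 fell with ca-Nfatc1 (31.4% and 33.4% of all genes). The list gene that rose in that fit was Crtc1, a CREB coactivator (adjusted p = 0.03, limma). Prkca was among those that fell, by 0.40 with ca-Nfatc2 and by 0.26 with ca-Nfatc1. Glp1r, the receptor for the incretin GLP-1, fell by 0.76 on the log2 scale with ca-Nfatc2 and by 0.39 with ca-Nfatc1 (limma, adjusted p = 3.34e-07 and 0.000664). Creb1, the factor that binds cAMP response elements, fell by 0.52 with ca-Nfatc2 and by 0.39 with ca-Nfatc1, and its relative Crem fell by 0.54 with ca-Nfatc2 and by 0.60 with ca-Nfatc1. Sik1, a kinase that holds CREB coactivators in the cytoplasm, fell by 0.75 with ca-Nfatc1 (adjusted p = 0.000433), and with ca-Nfatc2 the difference was -0.22 (adjusted p = 0.208), which passed without ca-Nfatc2 day 4 (-0.34, adjusted p = 0.0476) and under quantile normalization (-0.42, adjusted p = 0.018). Sgk1, a kinase gene induced by serum and glucocorticoids, rose by 0.53 with ca-Nfatc2 (adjusted p = 9.09e-05), and with ca-Nfatc1 the difference was -0.14 (adjusted p = 0.222).

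The clock genes also varied between days in all 3 groups. In the limma fit with the day as a block, a test added after the data were seen, the day term passed for 4 of the 10 genes, Nr1d1 (adjusted p = 0.00398), Per1 (0.0313), Per3 (0.0357) and Cry2 (0.0459), where 21.4% of all genes passed. Nr1d1 on day 1 was below its group mean by 0.225 to 0.596 on the log2 scale in the 3 groups. Per1 (by 0.196 to 0.270), Cry1 (0.086 to 0.159), Cry2 (0.064 to 0.205) and Per2 (0.033 to 0.110) were also below their group means in all 3 groups on that day, while Per3, Clock and Nr1d2 were above their group means in all 3 groups on day 1, Per3 by 0.031 to 0.302. On day 4, Nr1d1 was above its group means by 0.192 to 0.255 and Per3 below by 0.163 to 0.414. The 3 libraries of a day came from 1 pool of islets, and what differed between the days is not given in the sources used here.

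**Figure D4:**
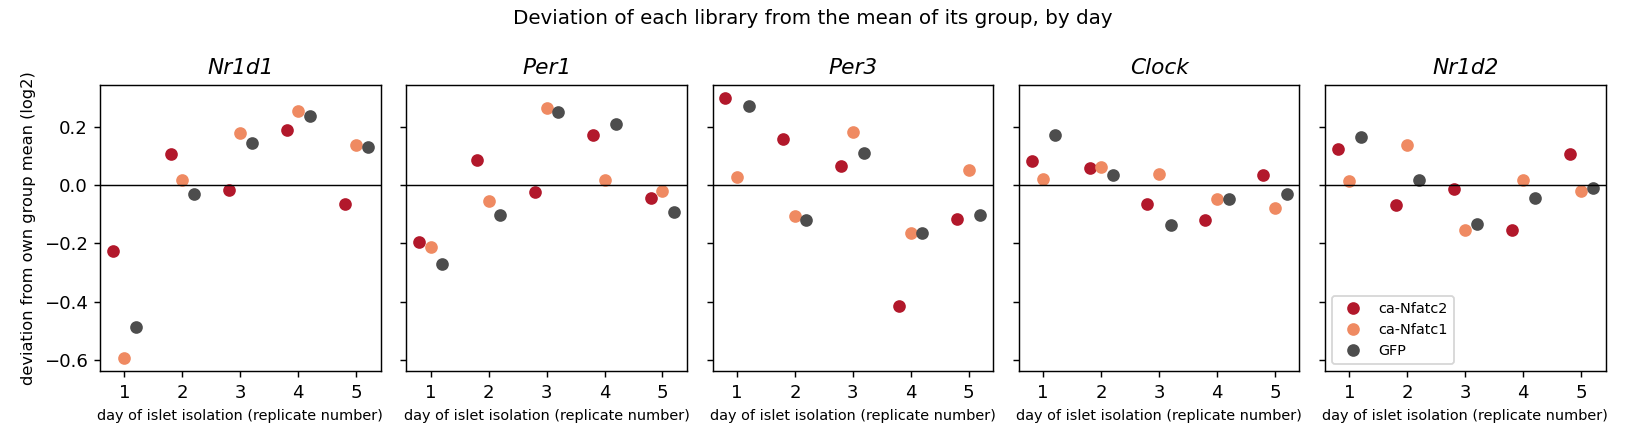
Deviation of the log2 value from the mean of its own group (y axis) for Nr1d1, Per1, Per3, Clock and Nr1d2, by day of islet isolation (x axis), with 1 point per library and a colour per group. On day 1 all 3 points of Nr1d1 and Per1 lie below 0 and all 3 of Per3, Clock and Nr1d2 lie above it.

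After the group means had been subtracted, the genes whose log2 values were most like those of Dbp over the 15 libraries were Ubac1, Tmem159, Mcee, Ccdc23 and Tprgl, with Pearson r of 0.895, 0.888, 0.881, 0.855 and 0.852. For Arntl they were Hspbap1, Zfp280b, Cpne8, Ctnnd1 and Phlpp2, with r of 0.868, 0.82, 0.792, 0.781 and 0.766. These were the highest of 10924 genes with a mean of at least 100, the 15 libraries share 5 pools of islets and a normalization, and the values are a description. None of the 10 clock genes was among either set, but only the highest positive r were ranked, so inverse partners could not enter. Dbp and Arntl had r of -0.752 with each other. Their r with the other clock genes lay between -0.287 (Per1 with Dbp) and 0.409 (Nr1d2 with Dbp).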

How the data were processed

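RNA of whole mouse islets from 15 libraries was analysed, 5 per virus. The authors mapped paired reads with bowtie to the mm10 refseq reference and obtained gene-level expected counts from RSEM, which they scaled by median-by-ratio normalization. The signal deposited for every library is this normalized expected count, and its group means stand beside it. The versions of bowtie and RSEM are not given in the sources used here. The deposited table also holds the authors' fold changes, as a ratio of group means, and the posterior probability of each of 5 expression patterns as a fraction from their EBSeq model, which were not used. A second table of the genes that the authors called was not used.

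Values were fitted as log2(value + 1) in limma 3.58.1 (R 4.3.3) with a variance trend and 1 coefficient per group, since the authors' model has no day term. Fold changes on this scale understate changes of low genes. Tests covered the 14151 genes whose 75th percentile over the libraries was above 10, as the authors filtered them. P-values were adjusted by Benjamini-Hochberg over all genes, with a threshold of 0.05. Low values were not whole multiples of a single read for all genes, so no count test was run. The test was tried on simulated data before use. Alternatives were another pseudocount (0.1 or 10), no filter, a mean of at least 100, equal totals, quantile normalization, the day as a block, no trend, only the groups compared, and each library left out in turn.

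The number of a library is its day, and every pool of islets was split over the viruses, so the numbers pair the libraries by design. Deviations from the group means correlated with a mean r of 0.219 (0.0544 to 0.473) over 15 same-day pairs, and of -0.0551 over 60 other pairs between groups. Depth did not pass an exact permutation test between groups (two-sided p = 0.444 for ca-Nfatc2 against GFP, 0.349 for ca-Nfatc1 against GFP and 0.817 for ca-Nfatc2 against ca-Nfatc1), while normalized totals were lower with both ca-NFATs than with GFP (p = 0.0159 and 0.0317). That test did not use the pairing by day. On every day the ca-Nfatc2 library was deeper than the GFP library, and the ca-Nfatc1 library was so on every day but day 3.

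The 10 genes and the lists were chosen with earlier results of these data known. Of each list, the 5 genes with the largest fold change against GFP past the threshold and a mean of at least 50 are named, and others where stated: Hlf, Rora and Rorb, which were added after their values were seen, as were Sphk2 and Thra. Crtc1 and Prkca were also named outside this rule. Genes most like Dbp and Arntl were ranked over all genes with a mean of at least 100. Loci, promoter sequences and transcript lengths are from RefSeq and GENCODE on GRCm38.p6, the build of the files. Ciart is listed under its older symbol Gm129. A further gene of the list of partners and one of the ductal markers are not reported here, and the counts, medians and sums of those lists leave them out.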

Additional observations from a re-analysis of the deposited data

Results flagged for a closer look

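In 2 of 30 sets of 5 libraries (10 genes in 3 groups), 1 library stood far from the others of its group by Dixon's criterion, which chance alone would give in about 1 set of 20. Per2 in the ca-Nfatc2 library of day 2 was 805.3 normalized expected counts, where the next highest was 695.3, and the gap was 0.883 of the range of the group. Nr1d1 in the ca-Nfatc1 library of day 1 was 208.7, where the next lowest was 319.9, and the gap was 0.721 of the range. Without that library the log2 difference of Nr1d1 from GFP with ca-Nfatc1 was -0.211, against -0.36 with it. Day 1 was also the lowest day of Nr1d1 with ca-Nfatc2 (241.7) and with GFP (288.8).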

How the results depend on the processing

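Over 24 alternatives, the count of clock genes past the threshold was 6 to 8 with ca-Nfatc2 against GFP, 7 to 9 with ca-Nfatc1 against GFP and 4 to 8 with ca-Nfatc2 against ca-Nfatc1. In the fit without a day term, 35.7% of all genes were higher and 32.8% lower with ca-Nfatc2 against GFP. With ca-Nfatc1 against GFP these shares were 28.4% and 28.4%, and with ca-Nfatc2 against ca-Nfatc1 23.6% and 25.7%. The value of 8 in that last comparison came with the day as a replicate block, against 5 without it, and Clock, Cry1 and Cry2 were the genes added. The block also brought Per3 and Nr1d1 with ca-Nfatc1 and Cry2 with ca-Nfatc2 past the threshold against GFP, and of the 10 clock genes it took none below it. Of the single values of the 10 genes, 691 kept direction and side of the threshold, 23 newly passed, 5 no longer passed and 1 turned. That was Arntl with ca-Nfatc1 against GFP under quantile normalization, at -0.03 on the log2 scale, which did not pass under either normalization. Arntl with ca-Nfatc2 against GFP passed under quantile normalization (adjusted p = 0.00517, limma) and without either library of day 4, GFP (0.03) or ca-Nfatc2 (0.0487). Cry2 with ca-Nfatc2 against GFP, and Nr1d1 with ca-Nfatc1, did not pass as deposited in the fit without a day term, but passed in some fits without 1 library. The log2 differences were 0.251 (without GFP day 3) and 0.244 (without ca-Nfatc2 day 4) for Cry2. For Nr1d1 they were -0.483 (without GFP day 1), -0.406 and -0.424 (without ca-Nfatc1 day 3 or 4). With equal totals Cry2 also passed, so that 1 clock gene rose and 6 fell with ca-Nfatc2. Under quantile normalization Nr1d1 with ca-Nfatc1 also passed. Among the other genes named by rule, Bhlhe41 with ca-Nfatc2 against ca-Nfatc1 turned without 1 library (-0.024 and -0.032), with a range of -0.032 to 0.097 over libraries left out. Fbxl21 with ca-Nfatc1 did not pass in 3 of 23 alternatives, under quantile normalization (log2 difference 0.182) and without GFP day 5 or ca-Nfatc1 day 2 (0.367 each). Quantile normalization also moved Fbxl21 and Lonrf3 with ca-Nfatc2 to -0.948 and -0.607. Quantile normalization moved the median over all genes to -0.099 with ca-Nfatc2 and -0.122 with ca-Nfatc1, with 4274 genes higher and 5643 lower, and 3266 higher and 5272 lower, against 5055 and 4648, and 4015 and 4022, as deposited. The causes were not tested. Precision was limited by the spread between 5 libraries per group, with SEs of 0.0616 (Clock) to 0.155 (Nr1d1) among the 10 genes, and the part of depth in that spread was not tested.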
